A study of Mus musculus with 6 samples.

Results

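The genes that code for voltage-gated sodium, potassium and calcium channels, their relatives and their auxiliary subunits were taken from the array annotation by symbol. The symbols were those of the sodium channel family (Scn, a number and a or b), of the potassium channel family (Kcn, with its letters and number) and of the calcium channel families Cacna, Cacnb and Cacng. The rule used names and no signal. It found 162 probes of 107 genes, out of 16593 genes with a probe, namely 8 sodium, 79 potassium and 20 calcium channel genes. By its letters, the rule also took in potassium channels that voltage does not gate, such as the two-pore-domain channels and the inward rectifiers.

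Transcripts were profiled on 6 Illumina MouseRef-8 v2.0 BeadChip arrays, each hybridised with RNA of 1 pool of 6 adult female C57Bl6 mice (substrain C57BL6/J). The arrays held spinal cord of the injured side at day 5, L4/5 dorsal root ganglia (DRG) of the injured left side at day 5, DRG of the right side, sciatic nerve of the right side, and injured left sciatic nerve at day 1 and at day 5. The injury was a transection at mid-thigh, and the proximal and distal stumps were pooled. The right side was labelled as normal tissue and described as sham-operated in the study, and it is called sham here. No transgene, allele or drug is named for any of these groups. The title of the day 5 nerve array carried the codes of both days, and its source name gave day 5.

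With 1 array per condition, conditions could be set side by side but not tested against each other. A signal is the mean intensity of the beads of a probe, scaled so that all arrays had the same median. A gene was detected where its detection p-value against the negative control beads was under 0.05, and the lowest detected scaled signal, the floor, was 117 to 124. A gene was tested in a comparison where either array detected it. It was called higher or lower where the signals differed at least 2-fold and the brighter array detected it, and "at least" marks folds whose dimmer array missed the gene, which are lower bounds. The 95% intervals come from the scatter of beads on the array alone and do not cover differences between animals, pools or hybridisations. Background was not subtracted, so folds of dim genes lie nearer to 1. Signals of different probes cannot be compared with each other. In bulk tissue, fewer cells of a type and less RNA per cell cannot be told apart.

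Voltage-gated channels set the excitability of axons. A pore-forming alpha subunit opens when the membrane depolarises, sodium channels carry the upstroke of the action potential, potassium channels end it, and calcium channels couple it to transmitter release and to gene activity. Auxiliary subunits do not form the pore but set how much channel reaches the membrane and how it gates. In myelinated fibres the sodium channels lie at the nodes of Ranvier and the Kv1 potassium channels lie under the myelin beside them. In sensory neurons the same families set the threshold of pain fibres.

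Of the 107 channel genes, 82 were detected on at least 1 array, 24 on all 6 and 25 on none. The spinal cord detected 64 of them, the day 5 DRG 62, the sham DRG 67, and the sham, day 1 and day 5 nerves 37, 45 and 35. A DRG array but no nerve array detected 22, the spinal cord alone 7, and a nerve array alone 4. These patterns over arrays were not counted for all genes, so they cannot be read as particular to channels. The share of channel genes detected was 57.9 to 62.6% in the DRG and cord and 32.7 to 42.1% in the nerve, while that of all genes was 55.2 to 58.6% over the 6 arrays. The 25 genes detected nowhere had scaled signals from 69.0 to 118. They included 4 of the 7 ether-a-go-go potassium channel genes, Kcnh3, Kcnh4, Kcnh5 and Kcnh7, and 4 of the 12 inward rectifier genes.

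**Figure D1:**
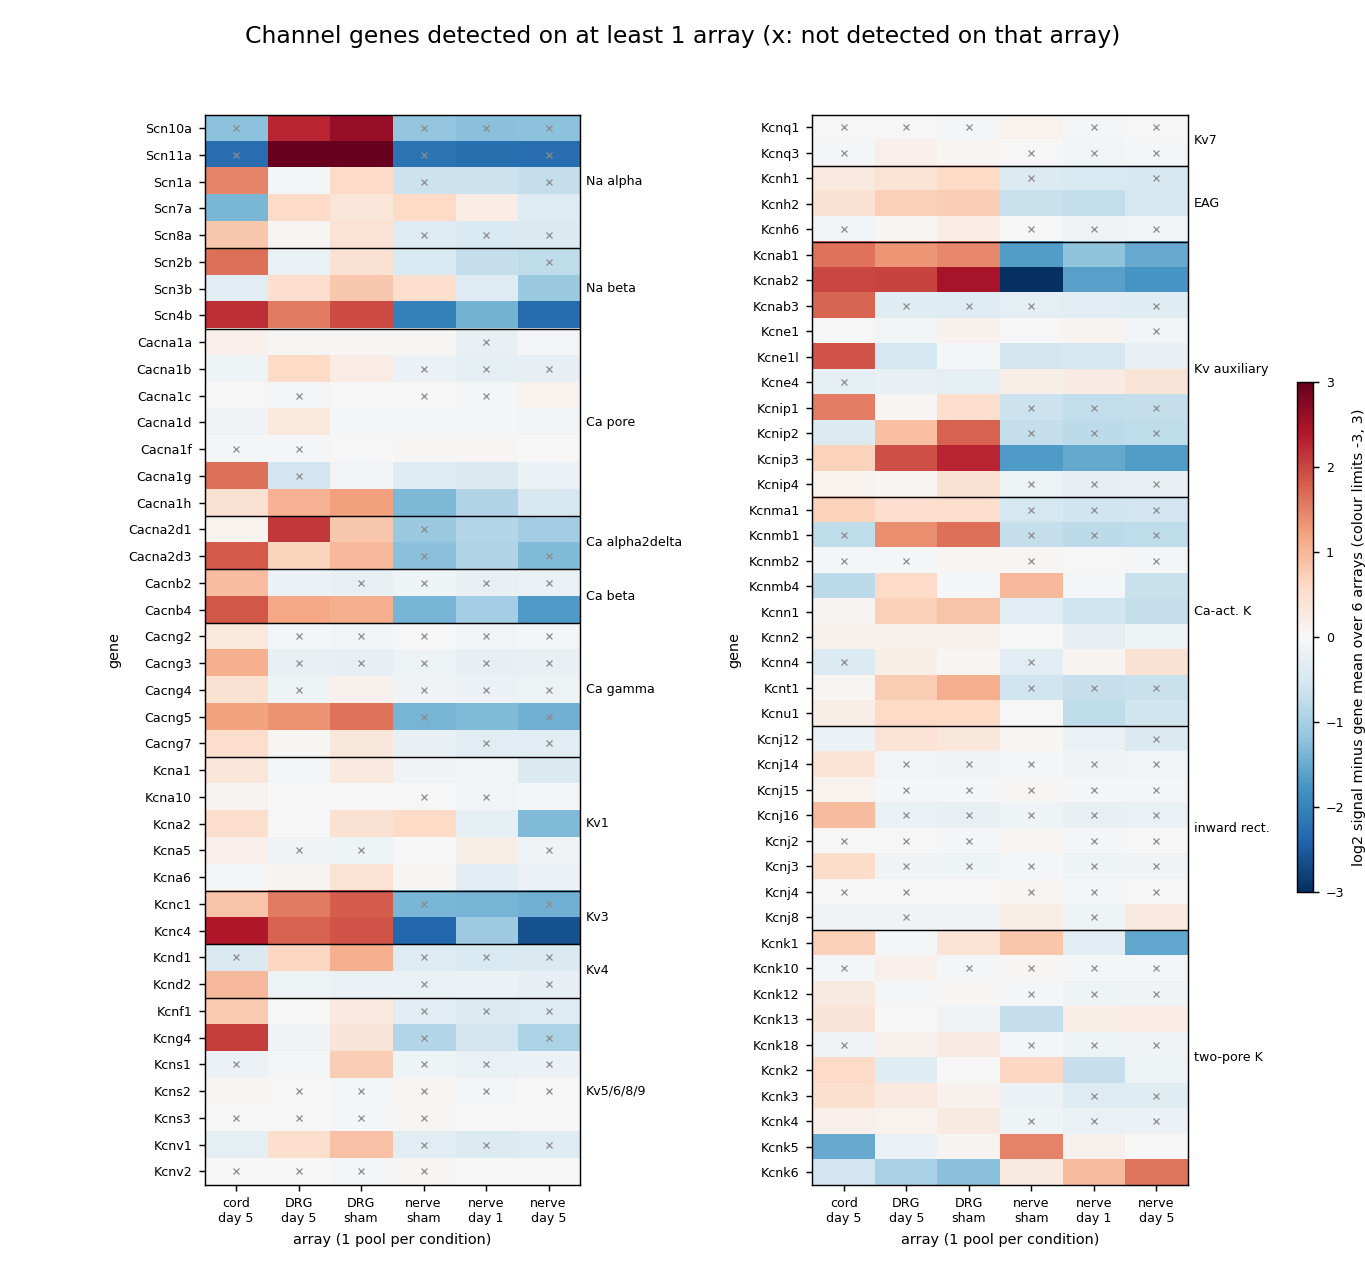
Heat map of the 82 channel genes detected on at least 1 array, in rows by family, over the 6 arrays in columns. Colour gives the log2 scaled signal minus the mean of that gene over the 6 arrays, undetected signals under the floor are set to it, and a cross marks arrays in which a gene was undetected. The DRG and cord columns carry most of the high values. Kcnk5 is highest in the sham nerve and Kcnk6 in the day 5 nerve.

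Markers of the tissues were in place. Of 14 measured markers of sensory neurons, 13 were detected in each DRG array, 9 in the cord and 3 to 6 in the nerve arrays. These sensory markers summed to 41381 in the day 5 DRG, 47423 in the sham DRG and 11845 in the cord. Markers of spinal cord neurons and glia (16 measured) summed to a scaled signal of 61163 in the cord, to 2452 in the day 5 DRG and 7387 in the sham DRG, and to 1702, 4605 and 1947 in the sham, day 1 and day 5 nerves. The cord array detected 15 of them, the day 5 DRG 5, the sham DRG 13, and the sham, day 1 and day 5 nerves 2, 13 and 1. The sham DRG and the day 1 nerve therefore stood apart from the other DRG and nerve arrays in this list. Macrophage and monocyte markers (10 measured) summed to 18567, 62452 and 117365 in the sham, day 1 and day 5 nerves, and Schwann cell and myelin markers (8 measured) to 119878, 106100 and 59500. Skeletal muscle markers (11 measured) summed to 9188, 3994 and 6542 in the same 3 arrays. Markers of any neuron (13 measured) summed to 5649, 7970 and 11206. Without Thy1, which read 1323, 1510 and 8276, their sum was 4326, 6460 and 2930. On day 5 Syp was 2.37-fold and Stmn2 3.69-fold below the sham nerve, and the median of the 7 tested markers of any neuron was -0.27 on the log2 scale. Markers of vascular smooth muscle and pericytes (8 measured) summed to 10882, 11434 and 17109, and those of endothelium (7 measured) to 8238, 8961 and 11903. The part of these lists in the channel results was not tested.

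Some channel genes differed at least 2-fold between the injured and the sham nerve, in both directions. In the day 1 nerve, 2 of 51 tested channel genes (Kcnab2 and Kcnc4) were higher than in the sham nerve, against 6.54% of all genes tested, and 4 (Kcnk1, Kcnk2, Kcnk5 and Kcnmb4) were lower, against 3.59%. In the day 5 nerve, 2 of 43 (Kcnab2 and Kcnk6) were higher, against 6.30%, and 5 (Kcna2, Kcnk1, Kcnk5, Kcnmb4 and Scn3b) were lower, against 5.09%. These counts came to 3.92% and 7.84% of the tested channel genes on day 1, and to 4.65% and 11.6% on day 5. The median log2 difference was -0.03 for channel genes and -0.01 for all genes on day 1, and -0.08 and -0.02 on day 5. Both comparisons use the same sham nerve array.

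In the day 5 DRG, 1 of 69 tested channel genes, Cacna2d1, was past 2-fold upward relative to the sham DRG, against 0.854% of all genes, and 0 were at least 2-fold lower, against 0.324%. Differences under 2-fold lay mostly to one side. Of 60 channel genes detected in both DRG arrays, 43 (71.7%) had a lower signal in the day 5 DRG, against 51.0% of 9043 genes. The bead interval lay wholly below no difference for 31 of the 60 (51.7%), against 19.4% of all genes, and wholly above it for 5 (8.33%), against 17.8%. The median log2 difference of the 69 was -0.18, and that of all genes was -0.00. By ion, 7 of 8 sodium, 32 of 43 potassium and 4 of 9 calcium channel genes were lower.

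Beside these DRG values, 9 of 13 tested spinal cord markers were at least 2-fold lower in the day 5 DRG than in the sham DRG, with a median log2 difference of -1.54. The sensory neuron list had a median of -0.30, with 2 of 13 tested at least 2-fold lower, and the list of markers of any neuron had a median of 0.02, with 0 of 11 past 2-fold. Of the macrophage and monocyte markers, 4 of 10 (Lyz2, Lgals3, C1qb and C1qc) were past 2-fold upward in the day 5 DRG, with a median of 0.90 on the log2 scale, and the list summed to 13262 in the day 5 DRG and 5765 in the sham DRG. Among the 60 channel genes, 25 had a cord signal above both DRG signals, and 18 of these were lower in the day 5 DRG, with a median log2 difference of -0.30. Another 10 were not detected in the cord, and 7 of these were lower, with a median of -0.22. In 21 the cord signal lay below both DRG signals, and 14 of these were lower, with a median of -0.18. The cord signal lay between the DRG signals in 4, all of them lower. The 7 genes detected in both DRG arrays and on no other array were Kcns1, Kcnd1, Scn10a, Kcnmb1, Kcnh6, Kcnk18 and Kcnq3, and 6 of them were lower, at -0.78 to -0.11 on the log2 scale, while Kcnq3 was at 0.11. Such splits by array were not made over all genes, so these counts cannot be read as particular to channels. The part of the marker lists in these differences was not tested.

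**Figure D2:**
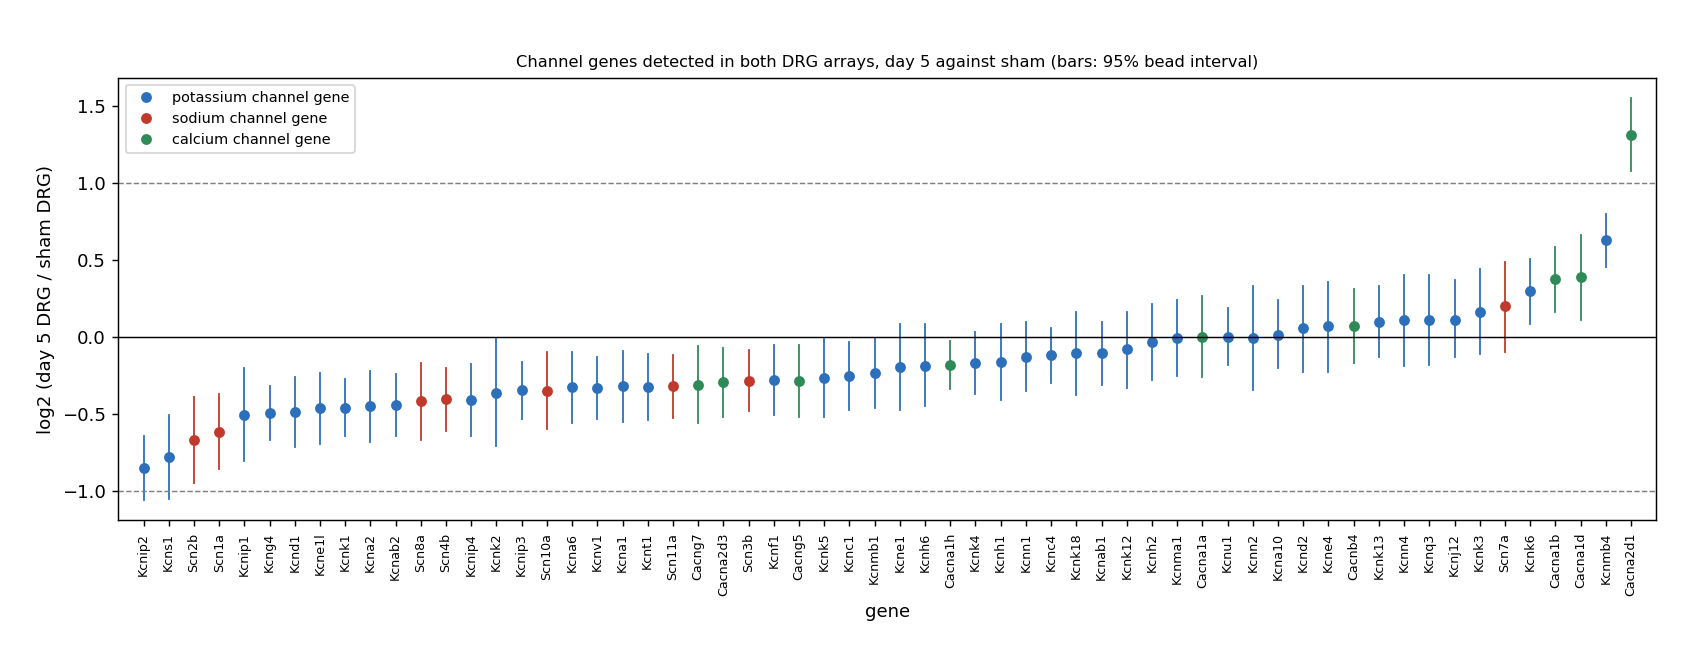
Log2 ratio of scaled signal, day 5 DRG over sham DRG, for the 60 channel genes detected in both arrays, in rising order along the horizontal axis. Points are single probes, vertical lines 95% intervals from bead scatter, colours the ion, and dashed lines 2-fold; 43 points lie below 0 and Cacna2d1 alone lies above the upper dashed line.

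All 8 sodium channel genes were detected on some array, and 5 of them code for alpha subunits and 3 for beta subunits. The largest contrasts were between tissues. Scn11a, which codes for Nav1.9 of pain-sensing neurons, had scaled signals of 11750 in the day 5 DRG and 14688 in the sham DRG, and the cord, at 91.1, did not detect it. In the sham, day 1 and day 5 nerves Scn11a read 108, 120 and 92.9, and only the day 1 nerve detected it. The sham DRG was at least 119-fold above the sham nerve, and the cord at least 98.6-fold below the day 5 DRG. Scn10a, which codes for Nav1.8 of the same neurons, read 1352 in the day 5 DRG and 1721 in the sham DRG and was detected on no other array, where its signals were 90.8 to 98.9. It was at least 13.9-fold higher in the sham DRG than in the sham nerve. In the day 5 DRG the log2 difference from the sham DRG was -0.32 for Scn11a, a 1.25-fold lower signal (95% bead interval 1.08 to 1.44), and -0.35 for Scn10a, 1.27-fold lower (1.07 to 1.52). Both bead intervals lay below no difference.

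Scn10a and Scn11a are neighbours on chromosome 9 in the mouse gene table, as are Scn2b and Scn4b. The 250 bases before the start of each of the first pair are shown because both code for channels of pain-sensing neurons. Sequences here come from RefSeq on build GRCm38.p6, run 5′ to 3′ on the strand of the gene, and carry capitals where a script found 1 of 4 motifs on either strand: TATAAA (the TATA box), GGGCGG (the GC box), TGANTCA (the AP-1 site) or TGACGTCA (the cyclic AMP response element), none of which contains another. The 2 windows hold no match to any of the 4, and their GC content was 49.6% for Scn10a and 48.0% for Scn11a, against a median of 52.4% over 32851 windows.
Scn10a (chr9:119719033-119719282, minus strand): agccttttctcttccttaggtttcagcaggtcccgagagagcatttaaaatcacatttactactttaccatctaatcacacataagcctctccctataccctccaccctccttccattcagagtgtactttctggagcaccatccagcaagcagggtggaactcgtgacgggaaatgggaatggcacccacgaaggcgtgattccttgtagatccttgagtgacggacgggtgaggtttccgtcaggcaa
Scn11a (chr9:119825457-119825706, minus strand): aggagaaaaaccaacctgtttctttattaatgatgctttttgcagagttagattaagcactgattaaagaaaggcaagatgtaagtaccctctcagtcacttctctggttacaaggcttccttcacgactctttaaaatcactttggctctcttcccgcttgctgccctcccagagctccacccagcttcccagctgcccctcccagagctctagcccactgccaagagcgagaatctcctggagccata

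Scn1a and Scn8a code for Nav1.1 and Nav1.6, the channels of large axons, and Nav1.6 is the main channel of the adult node of Ranvier. Scn1a read 544 in the cord, 190 in the day 5 DRG, 291 in the sham DRG, 95.8 in the sham nerve, 125 in the day 1 nerve and 98.1 in the day 5 nerve, and neither the sham nor the day 5 nerve detected it. It was 2.86-fold higher in the cord than in the day 5 DRG (2.46 to 3.32), and its signal in the day 5 DRG was 1.53-fold below that in the sham DRG (1.29 to 1.81). Scn8a read 285 in the cord, 165 in the day 5 DRG and 220 in the sham DRG, and no nerve array detected it, at 85.8 to 113. The day 5 DRG value of Scn8a was 1.34-fold below the sham DRG (1.12 to 1.59). Both genes were thus highest in the cord and lower in the day 5 DRG than in the sham DRG.

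Scn7a, which codes for the sodium-sensing channel Nax, read 123 in the cord, 474 in the day 5 DRG, 414 in the sham DRG, and 488, 374 and 245 in the sham, day 1 and day 5 nerves. It was the only alpha subunit gene that all nerve arrays detected. Its day 5 nerve value differed from the sham nerve by -0.99 on the log2 scale, just short of 2-fold, and its day 5 DRG value was higher by 0.20, with a bead interval that included no difference (0.935 to 1.40 as a ratio).

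The 3 beta subunits are single-pass proteins that bind the alpha subunits and act as adhesion molecules. Scn4b (beta4) read 2938 in the cord, 1856 in the day 5 DRG and 2458 in the sham DRG, and 154, 234 and 127 in the sham, day 1 and day 5 nerves. It was 15.9-fold higher in the sham DRG than in the sham nerve (13.4 to 19.0). Scn2b (beta2) read 638 in the cord, 175 in the day 5 DRG and 279 in the sham DRG, so that the day 5 DRG was 1.59-fold below the sham DRG (1.31 to 1.94). In the nerve Scn2b read 148, 123 and 114 at sham, day 1 and day 5, and the day 5 nerve did not detect it. Scn3b (beta3) read 303 in the cord, 548 in the day 5 DRG and 668 in the sham DRG, and 558, 292 and 178 in the sham, day 1 and day 5 nerves. Scn3b was the only sodium channel gene past 2-fold in the injured nerve, at 3.14-fold below the sham nerve on day 5 (2.73 to 3.62). A second, dimmer probe of Scn3b differed by only -0.29 on the log2 scale in the same comparison, against -1.65 for the probe used. All 3 beta subunits had bead intervals below no difference in the DRG.

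**Figure D3:**
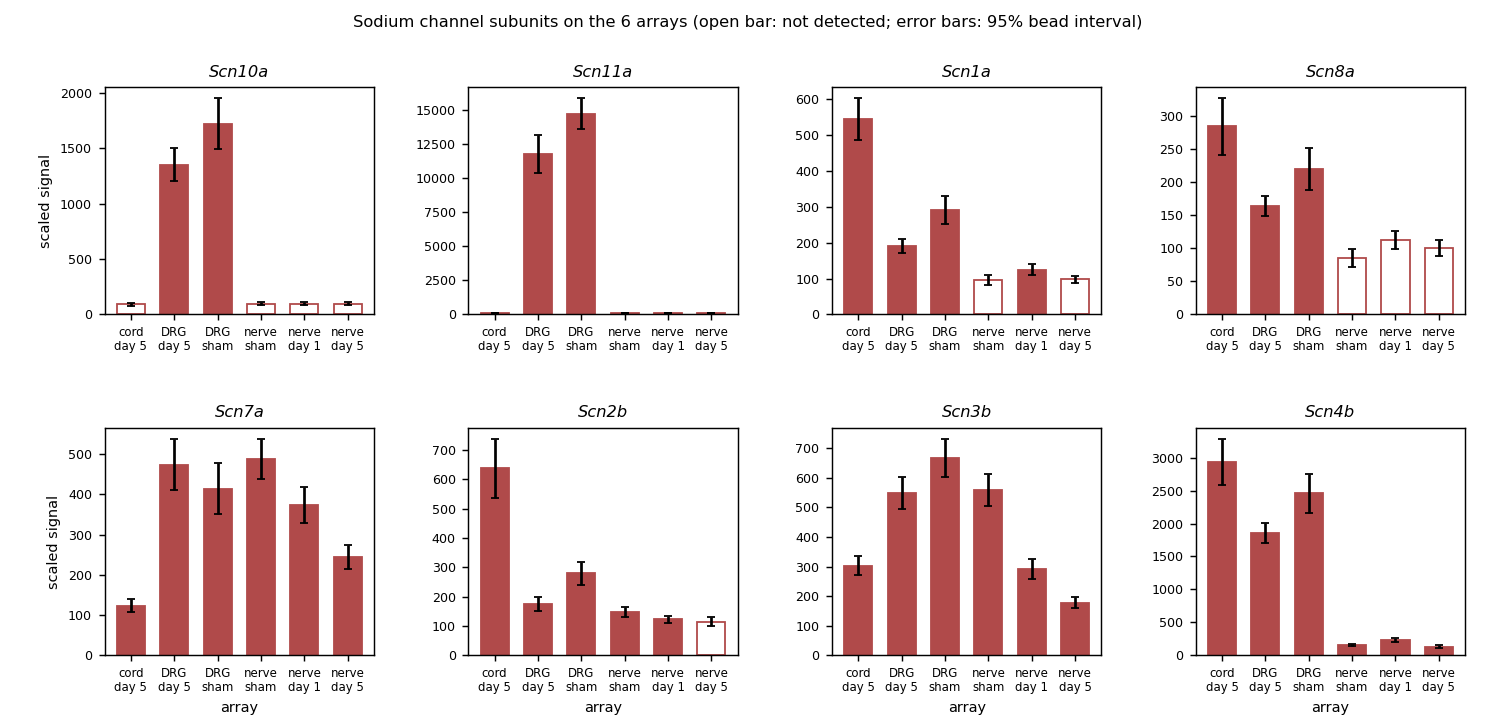
Scaled signal of the 8 sodium channel genes on the 6 arrays, with a panel and a vertical axis from 0 for each gene. Bars are single arrays of pooled RNA, open bars were not detected, and error bars are 95% intervals from bead scatter. Scn10a and Scn11a stand at 1352 to 14688 in the DRG and at 90.8 to 120 elsewhere, and Scn3b is lower in the day 1 and day 5 nerves than in the sham nerve.

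All 7 calcium channel pore subunit genes were detected on some array. Cacna1h, which codes for the T-type channel Cav3.2 of sensory neurons, read 666 in the cord, 1012 in the day 5 DRG, 1149 in the sham DRG, and 193, 261 and 351 in the sham, day 1 and day 5 nerves. It was 5.96-fold higher in the sham DRG than in the sham nerve (5.20 to 6.82), the only pore subunit past 2-fold there. Cacna1g, of the T-type channel Cav3.1, read 558 in the cord and was not detected in the day 5 DRG, at 114, so that the cord was at least 4.68-fold higher. The sham DRG detected it, at 167, and the day 5 DRG was at least 1.40-fold below that, a direction that turned with all probes averaged, at 0.13 on the log2 scale. Of the other pore subunits, Cacna1b (Cav2.2, the N-type channel of nerve terminals) was 1.30-fold higher in the day 5 DRG than in the sham DRG (1.12 to 1.50), at 214 against 165, and Cacna1d (Cav1.3, an L-type channel) was 1.31-fold higher (1.08 to 1.58), at 161 against 124. These were 2 of the 5 channel genes with a bead interval above no difference in the DRG.

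The alpha2delta subunits carry the pore to the membrane. Cacna2d1, of alpha2delta-1, which binds gabapentin and pregabalin, read 1158 in the day 5 DRG and 466 in the sham DRG, a 2.48-fold higher signal (2.11 to 2.93). It read 290 in the cord, and 109, 145 and 131 in the sham, day 1 and day 5 nerves, of which the sham nerve did not detect it. The day 5 DRG thus had the highest Cacna2d1 signal of the 6 arrays, and the cord was 3.99-fold below it (3.41 to 4.67). Cacna2d1 has 1 probe, and its day 5 DRG difference was past 2-fold in all 6 other ways of processing, at 1.31 to 1.46 on the log2 scale. Cacna2d3, of alpha2delta-3, went the other way across tissues. It read 1069 in the cord, 473 in the day 5 DRG, 581 in the sham DRG, and 117, 158 and 109 in the sham, day 1 and day 5 nerves, of which only the day 1 nerve detected it. Cacna2d3 was 2.26-fold higher in the cord than in the day 5 DRG (1.96 to 2.61), and 1.23-fold lower in the day 5 DRG than in the sham DRG (1.05 to 1.43). The 2 alpha2delta genes therefore had opposite signs in the DRG comparison, at 1.31 and -0.30 on the log2 scale.

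The window before the Cacna2d1 start is shown because this was the only channel gene past 2-fold in the DRG. It has a GC content of 82.4% and 6 matches to the GC box, all on the opposite strand, and capitals mark them. The GC box was found in 51 of 114 windows of channel genes (44.7%), which belong to 83 of the 107 genes, and in 32.7% of all windows. The other motifs were found in 2.63% (TATA box), 4.39% (AP-1 site) and 0% (cyclic AMP response element) of the windows of channel genes, and in 12.4%, 6.75% and 1.55% of all windows. A match is a run of letters and not a shown binding site.
Cacna2d1 (chr5:15934441-15934690, plus strand): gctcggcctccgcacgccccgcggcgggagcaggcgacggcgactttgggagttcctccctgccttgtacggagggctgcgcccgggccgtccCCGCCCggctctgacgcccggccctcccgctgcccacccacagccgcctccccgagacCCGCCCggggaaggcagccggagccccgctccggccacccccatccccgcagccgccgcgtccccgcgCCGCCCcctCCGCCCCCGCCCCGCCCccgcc

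The cytosolic beta subunits bind the loop between the first domains of the pore. Cacnb4 read 2160 in the cord, 1332 in the day 5 DRG, 1267 in the sham DRG, and 225, 296 and 185 in the sham, day 1 and day 5 nerves. It was 5.63-fold higher in the sham DRG than in the sham nerve (4.65 to 6.82), and its DRG arrays differed by 0.07 on the log2 scale with a bead interval that included no difference. Cacnb2 read 257 in the cord and 121 in the day 5 DRG, 2.12-fold higher in the cord (1.76 to 2.55), and the sham DRG and the nerves did not detect it, at 93.0 to 115. Cacnb1 was detected on no array.

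Several gamma subunits of this family are transmembrane AMPA receptor regulatory proteins (TARPs), which escort glutamate receptors. Of 8 gamma genes, 5 were detected. Cacng5 read 743 in the cord, 819 in the day 5 DRG, 998 in the sham DRG, and 119, 130 and 105 in the sham, day 1 and day 5 nerves, of which only the day 1 nerve detected it. The sham DRG was at least 8.05-fold above the sham nerve. Cacng2 (stargazin) and Cacng3 were detected in the cord alone, at 154 and 291, and Cacng3 was there at least 2.44-fold above the day 5 DRG. Cacng4 read 182 in the cord and 144 in the sham DRG, and the day 5 DRG did not detect it, at 100.0. Cacng7 read 216 in the cord, 152 in the day 5 DRG and 188 in the sham DRG, with the day 5 DRG 1.24-fold below the sham DRG (1.04 to 1.47). In the nerve Cacng7 was detected in the sham array alone, at 128. None of the auxiliary calcium channel genes was past 2-fold in an injured nerve.

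**Figure D4:**
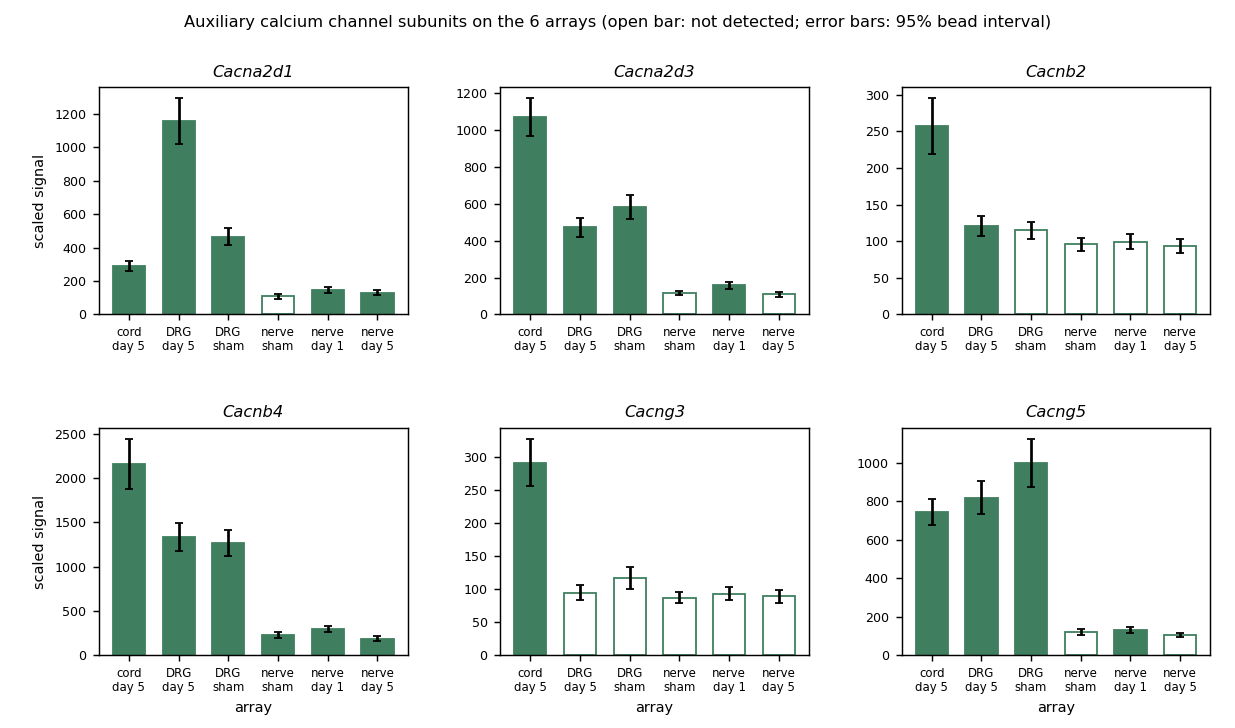
Scaled signal of 6 auxiliary calcium channel subunit genes on the 6 arrays, with a panel and a vertical axis from 0 for each gene. Bars are single arrays of pooled RNA, open bars were not detected, and error bars are 95% intervals from bead scatter; Cacna2d1 is highest in the day 5 DRG, at 1158, and Cacna2d3, Cacnb2, Cacnb4 and Cacng3 are highest in the cord.

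In the injured nerve, 8 of the 9 channel genes past 2-fold were potassium channel genes. Potassium channel genes made up 35 of the 51 channel genes tested on day 1 and 30 of the 43 on day 5. Kcnk1, of the two-pore-domain leak channel TWIK-1, read 3347, 1478 and 633 in the sham, day 1 and day 5 nerves, and was 2.26-fold lower on day 1 (1.94 to 2.64) and 5.29-fold lower on day 5 (4.50 to 6.22) than in the sham nerve. The day 5 signal was 0.428 of the day 1 signal (0.365 to 0.502). Kcna2, of the juxtaparanodal Kv1.2, read 647, 351 and 171, and was 3.78-fold below the sham nerve on day 5 (3.15 to 4.53). The day 5 signal of Kcna2 was 0.488 of that on day 1 (0.418 to 0.570). Both genes were thus lower on day 5 than on day 1, by more than their bead intervals.

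Kcnk5, of TASK-2, read 1476, 568 and 524 in the sham, day 1 and day 5 nerves, 2.60-fold below sham on day 1 (2.27 to 2.98) and 2.81-fold on day 5 (2.49 to 3.18). The other 2 probes of Kcnk5 lay nearer to 0, and the 3 probes ranged over -1.38 to -0.26 on the log2 scale on day 1 and over -1.49 to -0.24 on day 5. Kcnmb4, of the beta4 subunit of the large-conductance calcium-activated channel BK, read 1288, 629 and 410, 2.05-fold below sham on day 1 (1.73 to 2.43) and 3.14-fold on day 5 (2.61 to 3.78). All 3 probes of Kcnmb4 were past 2-fold on day 5, at -1.81 to -1.40. Kcnk2, of the mechanosensitive TREK-1, read 409, 165 and 242, 2.48-fold below sham on day 1 (2.03 to 3.01) and was within 2-fold of it on day 5, with a day 5 signal 1.47 times that of day 1 (1.21 to 1.78). Beside these 6 lower genes, Scn3b included, 5 of 7 tested Schwann cell and myelin markers were at least 2-fold lower on day 5, and 1 of 8 on day 1. Of 11 tested skeletal muscle markers, 7 were at least 2-fold lower on day 1, with a median of -1.09 on the log2 scale, and 1 on day 5.

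The windows before the Kcna2, Kcnk1, Kcnk5 and Kcnmb4 starts are shown because these are the 4 potassium channel genes at least 2-fold lower in the day 5 nerve than in the sham nerve. Their GC content was 62.4%, 44.4%, 62.8% and 83.6%, against a median of 58.2% over the windows of channel genes. Capitals mark matches to the GC box, 3 in Kcnk5, 4 in Kcnmb4 and 0 in Kcna2 and Kcnk1, and no window matched the other 3 motifs.
Kcna2 (chr3:107101317-107101566, plus strand): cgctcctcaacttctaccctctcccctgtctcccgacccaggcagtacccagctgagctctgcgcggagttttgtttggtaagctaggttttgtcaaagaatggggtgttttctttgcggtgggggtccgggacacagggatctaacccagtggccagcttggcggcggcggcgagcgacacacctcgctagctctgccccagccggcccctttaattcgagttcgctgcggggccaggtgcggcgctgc
Kcnk1 (chr8:125994852-125995101, plus strand): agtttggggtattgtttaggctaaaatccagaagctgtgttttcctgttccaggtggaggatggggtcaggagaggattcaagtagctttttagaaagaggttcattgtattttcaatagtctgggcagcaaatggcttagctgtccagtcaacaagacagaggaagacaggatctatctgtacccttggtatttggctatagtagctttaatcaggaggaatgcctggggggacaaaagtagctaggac
Kcnk5 (chr14:20181783-20182032, minus strand): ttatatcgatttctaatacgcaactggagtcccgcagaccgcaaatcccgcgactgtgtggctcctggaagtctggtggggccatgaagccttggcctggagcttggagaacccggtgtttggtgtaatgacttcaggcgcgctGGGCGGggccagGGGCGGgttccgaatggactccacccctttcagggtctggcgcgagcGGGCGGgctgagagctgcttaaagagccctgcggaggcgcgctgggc
Kcnmb4 (chr10:116473524-116473773, minus strand): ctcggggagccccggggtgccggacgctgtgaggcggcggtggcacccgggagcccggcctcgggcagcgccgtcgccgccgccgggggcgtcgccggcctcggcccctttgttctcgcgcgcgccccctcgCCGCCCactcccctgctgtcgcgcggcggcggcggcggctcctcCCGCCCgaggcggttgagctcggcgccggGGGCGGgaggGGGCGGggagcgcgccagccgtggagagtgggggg

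Higher signals were found for Kcnab2, Kcnk6 and Kcnc4. Kcnab2, of the Kv1 beta subunit Kvbeta2, read 338, 917 and 829 in the sham, day 1 and day 5 nerves, 2.71-fold above sham on day 1 (2.27 to 3.23) and 2.45-fold on day 5 (2.04 to 2.93). The day 5 signal was 0.904 of the day 1 signal, with a bead interval that included 1 (0.792 to 1.03). Kcnk6, of TWIK-2, read 468, 754 and 1192, 2.55-fold above sham on day 5 (2.10 to 3.08), while a second detected probe of Kcnk6 differed by 0.72 on the log2 scale. Kcnc4, of the fast-inactivating Kv3.4, read 147, 352 and 122, 2.39-fold above sham on day 1 (2.10 to 2.71), and the day 5 signal was 0.346 of that on day 1 (0.306 to 0.390). Averaging all probes of a gene ended the 2-fold call of Kcnc4, Kcnk2, Kcnk5 and Kcnmb4 on day 1 and of Kcnk6 on day 5, and leaving out the scaling ended that of Kcnmb4 on day 1.

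Beside these values, 8 of 13 tested spinal cord markers and 6 of 10 macrophage and monocyte markers were at least 2-fold higher in the day 1 nerve, and 1 of 3 and 10 of 10 in the day 5 nerve. The cord signal was 3955 for Kcnc4, 11331 for Kcnab2 and 262 for Kcnk6, and the sham DRG signal was 2757, 15728 and 163. A set of 10 channel genes was detected in the day 1 nerve and in neither other nerve array, at 120 to 158 against a floor of 117. They were Cacna2d3, Cacng5, Kcnab3, Kcnc1, Kcnd2, Kcng4, Kcnh1, Kcnmb2, Scn11a and Scn1a, and the cord detected 8 of them, all but Kcnmb2 and Scn11a. The sham DRG detected all of them but Kcnab3, Kcnmb2 and Scn11a included. Of the channel genes as a whole, the cord detected 59.8% and the sham DRG 62.6%. Genes with this pattern were not counted over all genes, and several of the 10 lay close to the detection limit. The part of the marker lists in these values was not tested. Among genes singled out after their values were seen, Kcnk13, of THIK-1, which microglia carry, read 397, 740 and 762 in the sham, day 1 and day 5 nerves, and Kcnn4, of the intermediate-conductance channel of immune cells, read 121, 166 and 216, undetected in the sham nerve. Kcnk13 was 1.92-fold and Kcnn4 at least 1.74-fold above the sham nerve on day 5, both short of the threshold. Kcnk13 was called higher on both days without scaling, and both genes on day 5 with neqc, which subtracts background. In the sham DRG Kcnk13 read 604 and Kcnn4 165, above their sham nerve signals. The macrophage and monocyte list summed to 5765 there and to 18567 in the sham nerve. No list of channel genes of immune cells was drawn up, so these picked examples do not speak for such genes as a group.

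**Figure D5:**
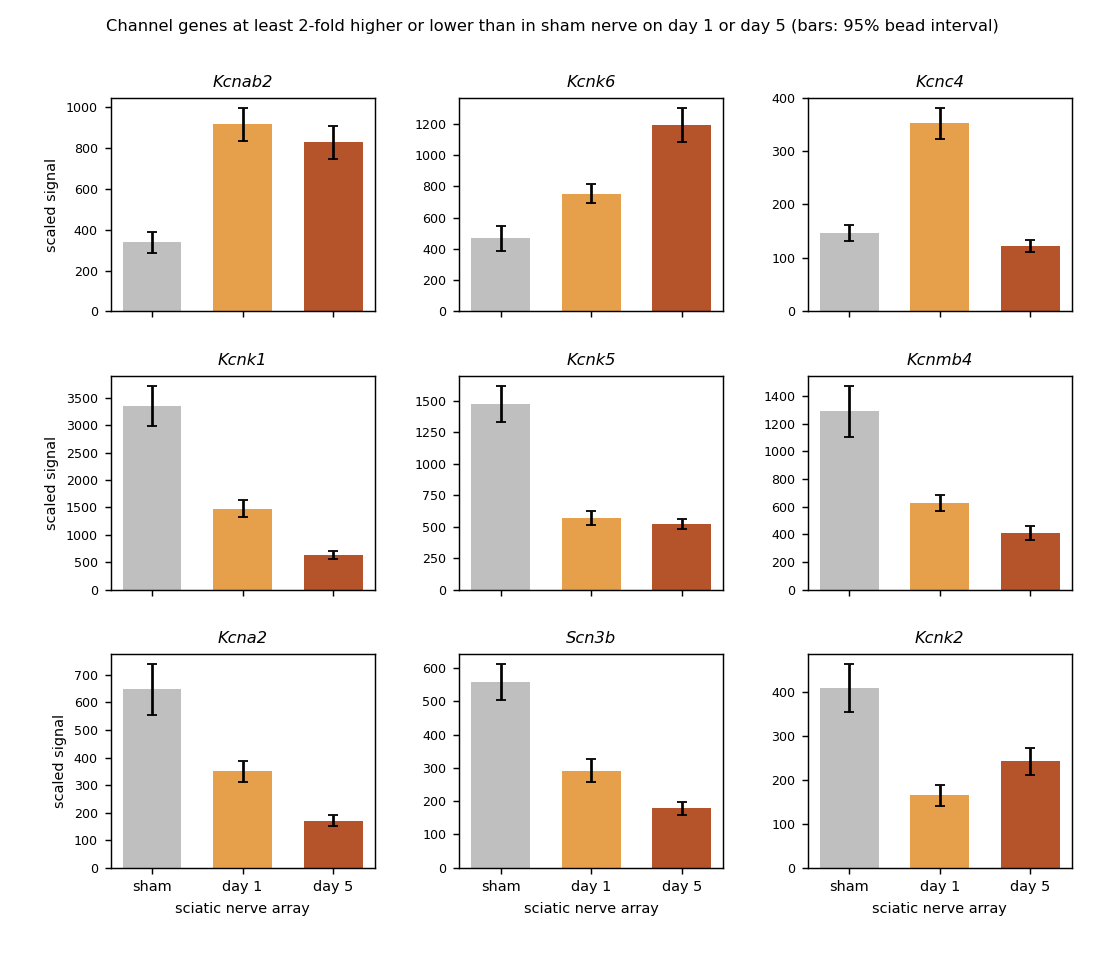
Scaled signal in the sham, day 1 and day 5 sciatic nerve arrays of the 9 channel genes at least 2-fold higher or lower than in the sham nerve on either day, with a panel and a vertical axis from 0 for each gene. Bars are single arrays of pooled RNA and error bars 95% intervals from bead scatter; Kcnk1 reads 3347, 1478 and 633 and Kcnab2 338, 917 and 829.

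None of the 47 potassium channel genes tested in the DRG was past 2-fold between the day 5 DRG and the sham DRG. The lowest ratio was that of Kcnip2, of KChIP2, an auxiliary subunit of Kv4 channels, at 380 in the day 5 DRG against 685 in the sham DRG, 1.80-fold lower (1.56 to 2.09). Kcns1, of the silent subunit Kv9.1, read 131 against 226, 1.72-fold lower (1.42 to 2.08). Kcnip1, Kcnip3 and Kcnd1, of 2 more KChIPs and of Kv4.1, differed by -0.50, -0.35 and -0.49 on the log2 scale, with bead intervals below no difference. A second, dimmer probe of Kcnip1 differed by only -0.05. Of the 9 tested auxiliary Kv subunit genes, all detected in both arrays, 8 were lower, with a median of -0.41. The Kv1 genes Kcna1, Kcna2 and Kcna6 were at -0.32, -0.45 and -0.33 on the log2 scale, and Kcna10 was at 0.02. Kcnab2 read 11584 in the day 5 DRG and 15728 in the sham DRG, 1.36-fold lower (1.18 to 1.56), while it was higher in the injured nerve.

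Kcnmb4 was the potassium channel gene with the highest ratio in the DRG, at 972 in the day 5 DRG against 629 in the sham DRG, 1.55-fold higher (1.37 to 1.74), and its 3 probes lay at 0.59 to 0.68 on the log2 scale. In the nerve the same gene was lower at both days. Kcnk6 was 1.23-fold higher in the day 5 DRG (1.06 to 1.42). Kcnk1 read 1797 in the day 5 DRG and 2470 in the sham DRG, 1.37-fold lower (1.21 to 1.56), and Kcnk5 458 and 551, 1.20-fold lower (1.01 to 1.43). Kcnk2 read 208 and 267, 1.28-fold lower (1.01 to 1.63). The calcium-activated family was split, with 5 of 8 genes detected in both arrays lower and a median over its 9 tested genes of -0.01.

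All 4 silent Kv subunit genes detected in both DRG arrays were lower in the day 5 DRG, with a median of -0.41 on the log2 scale. Kcnt1, of the sodium-activated channel Slack, read 320 in the day 5 DRG and 401 in the sham DRG, at -0.32 on the log2 scale, and the silent subunits Kcnv1 (226 and 285) and Kcnf1 (157 and 191) were at -0.33 and -0.28, all 3 with bead intervals below no difference. Kcnh2, of the channel ERG1 that repolarises the heart, read 1061 in the day 5 DRG and 1088 in the sham DRG, and 407, 391 and 460 in the sham, day 1 and day 5 nerves. It was 2.68-fold higher in the sham DRG than in the sham nerve (2.20 to 3.25). With the probe used, the injury differences of Kcnh2 all lay within 0.18 on the log2 scale. Its tested probes ranged over -0.31 to -0.04 in the day 5 DRG and over 0.18 to 0.3 in the day 5 nerve, each against sham. Kcnn1, of the small-conductance channel SK1, read 387 and 423 in the same DRG arrays and 184, 156 and 142 in the sham, day 1 and day 5 nerves. Kcnu1, of a relative of the BK pore, read 210, 125 and 140 in the nerves, at -0.74 on day 1 and -0.58 on day 5. Of the 12 inward rectifier genes 8 were detected, and only Kcnj12, of Kir2.2, was detected in both DRG arrays, at 220 in the day 5 DRG and 203 in the sham DRG. Kcnj8, of the Kir6.1 pore of vascular channels, read 145, 113 and 158 in the sham, day 1 and day 5 nerves, and Kcna5, of Kv1.5, read 128, 144 and 116.

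The channel genes were also spread unevenly over tissues. In the sham DRG, 25 of 70 tested (35.7%) were at least 2-fold higher than in the sham nerve, against 12.0% of all genes, and 3 (Kcnk5, Kcnk6 and Kcnmb4) were lower, against 11.0%. Kcnab2 was 46.5-fold higher in the sham DRG (38.5 to 56.1), Kcnc4 18.7-fold (16.4 to 21.4) and Kcnip3 15.7-fold (13.4 to 18.4). Kcnc1, of Kv3.1, read 1127 in the sham DRG and 110 in the sham nerve, which did not detect it, at least 9.09-fold apart. A second, dimmer probe of Kcnc1 differed by only 0.35 on the log2 scale, within 2-fold. Kcnab1, of Kvbeta1, read 2421 in the sham DRG and 278 in the sham nerve, 8.71-fold higher. Kcnk5 was the reverse, at 551 in the sham DRG and 1476 in the sham nerve, 2.68-fold lower in the DRG (2.25 to 3.19), and Kcnk6 was 2.87-fold lower there (2.36 to 3.49). Of 9 tested two-pore-domain genes, 2 were thus at least 2-fold lower in the sham DRG and 0 higher. Averaging all probes of a gene ended the call of all 3 lower genes and of Cacnb4, Kcng4, Kcnh1, Kcnip1 and Kcnip2 among the higher ones. The processed values and a detection p under 0.01 each ended those of Kcnh1 and Kcnma1, and leaving out the scaling ended that of Kcnmb4.

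In the spinal cord, 12 of 75 tested were at least 2-fold higher than in the day 5 DRG, against 6.08% of all genes, and 10 were lower, against 7.51%. Besides the sodium and calcium channel genes above, Kcne1l, an auxiliary subunit gene of the KCNE family, was 5.34-fold higher in the cord (4.58 to 6.23), at 806 against 151. Kcng4, of the silent subunit Kv6.4, was 4.49-fold higher (3.94 to 5.13), at 959 against 213, and Kcnab3 was at least 4.28-fold higher. Kcnj16, of the glial inward rectifier Kir5.1, read 260 in the cord and was detected nowhere else. On the other side, Kcnmb1, of the beta1 subunit of BK, read 537 in the day 5 DRG and 633 in the sham DRG, and the cord did not detect it, at least 4.51-fold lower. Scn10a, Scn11a and Scn7a were the alpha subunit genes lower in the cord, Scn7a by 3.84-fold (3.19 to 4.63). Averaging all probes ended the calls of Cacna1g, Cacnb2, Cacng3, Kcnip2 and Kcnk5 in this comparison. Leaving out the scaling ended those of Cacnb2, Kcnd2 and Kcnj16, a detection p under 0.01 those of Cacnb2, Kcnd1 and Kcnj16, and the processed values that of Kcnd1.

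Proteins that place or bind these channels were read from 3 lists. Of all genes tested, 6.54% were at least 2-fold higher in the day 1 nerve and 5.09% lower in the day 5 nerve. In the day 5 DRG 0.854% were higher and 0.324% lower. With so few genes tested per list, the calls below cannot be read as particular to the lists. Of 19 measured genes of the node of Ranvier, paranode and axon initial segment, 2 of 16 tested were at least 2-fold higher in the day 1 nerve. They were Nrcam, at 2492 in the day 1 nerve against 818 in the sham nerve, and Gldn, at 12154 against 5188, both of adhesion proteins that gather sodium channels at the node. In the day 5 nerve, 1 of 12 was lower, the paranodal Cntn1, at 147 against 299, and the list had a median of -0.67 on the log2 scale. In the DRG 0 of 17 passed. Of 21 measured partners of the channels in the cytosol and membrane, S100a10, which carries Nav1.8 to the membrane, was 2.04-fold higher in the day 5 DRG, at 5438 against 2667, and Camk2b, of a calmodulin-dependent kinase, was 2.04-fold lower, at 747 against 1522, among 13 tested. None of the partners passed in the nerve. Of 13 measured other cation channels of axons and sensory neurons, Hcn2, of a pacemaker channel, was 2.11-fold higher in the day 1 nerve, at 358 against 170, among 6 tested, and 0 passed in the day 5 nerve or in the DRG.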

How the data were processed

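RNA of 6 pools of 6 animals each was hybridised to 1 array per condition. The authors deposited, for each of 25697 probes, a mean bead intensity without scaling or background subtraction, its standard error, the number of beads (median 38 to 40) and a detection p-value. They also deposited processed intensity values, used as an alternative. The submitters' processing notes name Agilent Feature Extraction 10.5, and the study describes normalization to the median in GeneSpring. The genome build of the probes is not given in the sources used here.

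Intensities were scaled to a common median (factors 0.951 to 1.07). Of the probes, 23978 carried 1 gene symbol, 0 several and 1719 none. A gene was read from the probe with the highest mean signal, and 36 of the 107 channel genes had more than 1 probe. Undetected signals under the floor were set to it. The median standard error of a probe was 5.89 to 6.53% of its signal. The number of beads limits the precision. On data made from the sham nerve array with known changes, 198 of 200 changed probes were called in the right direction, and 0 unchanged ones. The changed probes were bright, their changes were well past 2-fold, and bead scatter was the only noise. The check says nothing about dim genes, differences near 2-fold, or differences between pools or hybridisations.

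Comparisons were day 1 nerve and day 5 nerve, each against sham nerve, day 5 DRG against sham DRG, sham DRG against sham nerve, and day 5 spinal cord against day 5 DRG, and they share arrays. The settings tried were no scaling, the deposited processed values, neqc (limma 3.58.1 in R 4.3.3), a detection p under 0.01, the mean of all probes of a gene, and no floor. Python 3.11.15 with pandas 2.3.3 did the rest.

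The members, the 8 marker lists, the 3 partner lists and the settings were chosen with earlier results of these data known. Genes were named where they were at least 2-fold different in an injury comparison, where they were detected sodium channel genes or detected alpha2delta, beta or gamma calcium channel genes, where they were among the 4 largest differences of another family, or among the 6 largest folds of a tissue comparison. Cacnb1, Kcna10, Kcnab3, Kcnh3, Kcnh4, Kcnh5, Kcnh7, Kcnj16, Kcnk13, Kcnk18, Kcnma1, Kcnmb2 and Kcnn4 lie outside this rule and were named after their values were seen.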

Additional observations from a re-analysis of the deposited data

Results flagged for a closer look

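Kcnab2 and Kcnmb4 went opposite ways in the nerve and in the DRG at day 5, and the difference between the tissues was not tested, with 1 array per condition. Kcnab2 was at 1.29 on the log2 scale in the day 5 nerve against the sham nerve and at -0.44 in the day 5 DRG against the sham DRG. Kcnmb4 was at -1.65 in the nerve and at 0.63 in the DRG.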

How the results depend on the processing

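No channel gene past 2-fold changed direction under any of the 6 alternatives. With all probes averaged, 3 values of named genes within 2-fold changed sign from over 0.3 in size on the log2 scale, namely Kcng4 in the day 1 nerve, at -0.03, Cacna1g in the day 5 DRG, at 0.13, and Kcnc1 in the cord against the day 5 DRG, at 0.42. Averaging all probes of a gene gave 1 higher and 1 lower channel gene in the day 1 nerve, 1 higher in the day 5 nerve, and 0 lower in the sham DRG against the sham nerve. The neqc correction subtracts background and gave 7 lower genes in the day 1 nerve, 5 higher and 9 lower in the day 5 nerve, 3 lower in the day 5 DRG (Cacna1g, Kcns1 and Scn2b), and 19 higher and 16 lower in the cord against the day 5 DRG. The other counts of channel genes stayed within 1.5 times the main count. The same genes were called in every setting for 2 of 6 in the day 1 nerve (Kcnab2 and Kcnk1), 6 of 7 in the day 5 nerve (not Kcnk6), 1 of 1 in the day 5 DRG, 19 of 28 in the sham DRG against the sham nerve and 14 of 22 in the cord. Without scaling, the median of all genes was 0.12 in the day 1 nerve, against -0.01 with it, and 3 channel genes were higher and 3 lower there. It also moved the split of calls over all genes from 64.6 to 76.1% higher on day 1, from 52.3 to 62.5% in the sham DRG against the sham nerve, and from 44.8 to 34.2% in the cord, while with neqc the day 1 split was 50.8%. The number of channel genes lower in the day 5 DRG was 41 to 44 of 60 in 6 settings and 39 of 52 with detection p under 0.01. Dim signals near the floor limit what can be seen. No paired analysis was possible because each condition has 1 array.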
